A study of Mus musculus with 6 samples.

Results

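The genes described here are the cytosolic ribosomal protein genes of the mouse. They were chosen by symbol, as the protein-coding genes whose name starts with Rpl or Rps, leaving out the S6 kinases, pseudogenes, *Rps19bp1* and *Rpl7l1*. The rule gave 81 genes of the 20409 rows in the count table, 48 of the large and 33 of the small subunit. RNA-seq counts came from the villus epithelium of the duodenum in 6 mice, 3 per group. The double mutant mice carried *Smad4* fl/fl, a floxed exon 3 of 1 β-catenin (*Ctnnb1*) allele and Villin-CreERT2, on a background enriched for C57BL6. Villin-CreERT2 acts throughout the intestinal epithelium once tamoxifen is given. Its excision removes Smad4, the shared mediator of BMP and TGF-β signals, and leaves a β-catenin that escapes degradation. Tamoxifen was injected on 4 days at 0.05 g/kg and villi were collected at day 7. Wild-type mice were littermates without tamoxifen, so the drug and the mutations cannot be told apart. Ages are described only as matched between groups, and whether the wild-type mice carried Cre or a floxed allele is not given in the sources used here. Each group had 1 male, numbered 1, and 2 females, numbered 2 and 3.

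The cytosolic ribosome is built from a large (60S) subunit, which joins amino acids, and a small (40S) subunit, which reads the message. Each subunit holds ribosomal RNA and a set of proteins that are needed in roughly equal numbers, and free ribosomal proteins are degraded. Most of their transcripts begin with a run of pyrimidines, the 5′ terminal oligopyrimidine (TOP) tract, through which mTORC1 controls their translation. In the intestine, ribosome production is high in the dividing cells of the crypt and declines as cells move up the villus. Ribosomal protein genes have also left many processed copies in the genome, so reads can be shared between a gene and its copies.

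The transcript starts of 10 members are shown because the TOP tract belongs at this place and because the genes differ in their change, from 0.73 for *Rpl28* to 2.16 for *Rps12* on the log2 scale. Each line gives 10 bases before and 15 bases from a transcript start of the RefSeq annotation (build GRCm38.p6, plus-strand coordinates, sequence 5′ to 3′ on the gene's strand), and capitals mark the longest run of C and T where it reached 5 bases. The first 3 genes are a small subunit gene and a stalk gene that rose most, and the target of the S6 kinases.
*Rps12* (chr10:23787195-23787219, minus): tcatgcggccaccgccggCCTTTTC
*Rpl12* (chr2:32961702-32961726, plus): agcaggatccgTCTTTTCggctttc
*Rps6* (chr4:86857353-86857377, minus): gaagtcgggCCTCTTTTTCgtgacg
*Rpl14* (chr9:120571507-120571531, plus): ggCCCTCTCTCTTCTCgctgagcgc
*Rpl27a* (chr7:109519185-109519209, plus): cgtgagCTCCTCCCTTTTCCCTTTC
*Rpl28* (chr7:4792955-4792979, plus): tctcgtgTCTCTCTTTCCgtctccg
*Rpl22l1* (chr3:28805498-28805522, plus): gcgcaagcccgTTCTCTTCCCacgg
*Rpl5* (chr5:107900518-107900542, plus): cgtcgcttgcgtgctggtggtgcta
*Rpl24* (chr16:55966265-55966289, plus): gctgttgctaggaaacagactgggc
*Rpl10* (chrX:74270806-74270830, plus): tacagtggaagataggccgcctata
Within the printed bases the run is 7 long in both *Rps12* and *Rpl12*, 11 in *Rpl28* and 14 in *Rpl14*. It is 19 bases in *Rpl27a*, whereas the printed bases of *Rpl5*, *Rpl24* and *Rpl10* hold none of 5 bases. In *Rps12* the run begins at transcribed base 9 of this annotated start, and in *Rpl12* at base 2.

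Before the members are described, 1 library has to be named. Wild-type mouse 1 had a summed level of 123 CPM (counts relative to the TMM-scaled library size) for 7 goblet cell genes, where wild-type mice 2 and 3 had 11609.8 and 11036 CPM and double mutant mice 4657 to 5056 CPM. Its 5 Paneth cell genes summed to 7.91 CPM, against 905 and 1487 CPM, and 153 to 245 CPM in double mutant villi. The villus label held in every mouse for 10 enterocyte genes, which summed to 44656 to 50924 CPM in wild-type mice and 28777 to 33881 CPM in double mutants, where 1 was called higher and 5 lower. The 6 crypt and dividing cell genes summed to 16.4 CPM in wild-type mouse 1, and 84.9 and 104 CPM in wild-type mice 2 and 3. In the mutants they summed to 149.7 to 232 CPM, with 4 called higher. Of 8 lymphocyte genes, 2 were lower. Their sums were 86.0 CPM in wild-type mouse 1, 172 and 157 CPM in wild-type mice 2 and 3, and 73.2 to 114 CPM in the mutants. Stroma genes summed to at most 4.37 CPM, with *Col1a2* and *Col3a1* at 3 counts or fewer in every mouse. *Smad4* itself fell by 2.22 on the log2 scale (adjusted p = 0.000145, edgeR). In bulk villi, a different number of cells of 1 type cannot be told apart from a different amount of RNA per cell, and the part of these shifts in the results was not tested. Libraries held 19678507 to 26337318 counts.

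Cytosolic ribosomal protein genes were higher in double mutant villi, nearly all of them together. Of the 81 genes, 80 passed the filter on low counts and 73 were called higher in double mutant villi (edgeR quasi-likelihood, adjusted p under 0.05), where 19.7% of all 13346 genes tested were. No member was called lower by edgeR, where 17.0% of all genes were, and 7 were not called. At an unadjusted p under 0.05 1 member, *Rps4y2*, was lower, and DESeq2 and limma-voom each called 1 lower. At an added threshold of 1 on the log2 scale, 65 members were higher, against 10.9% of all genes. The median log2 fold change was 1.38 over the members (quartiles 1.18 and 1.54) and 0.02 over all genes tested. The member that failed the filter was *Rpl3l*, the paralog of *Rpl3* known from striated muscle, with 0 to 2 counts in every mouse. Without wild-type mouse 1, 70 members were higher and the median was 1.38.

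**Figure D1:**
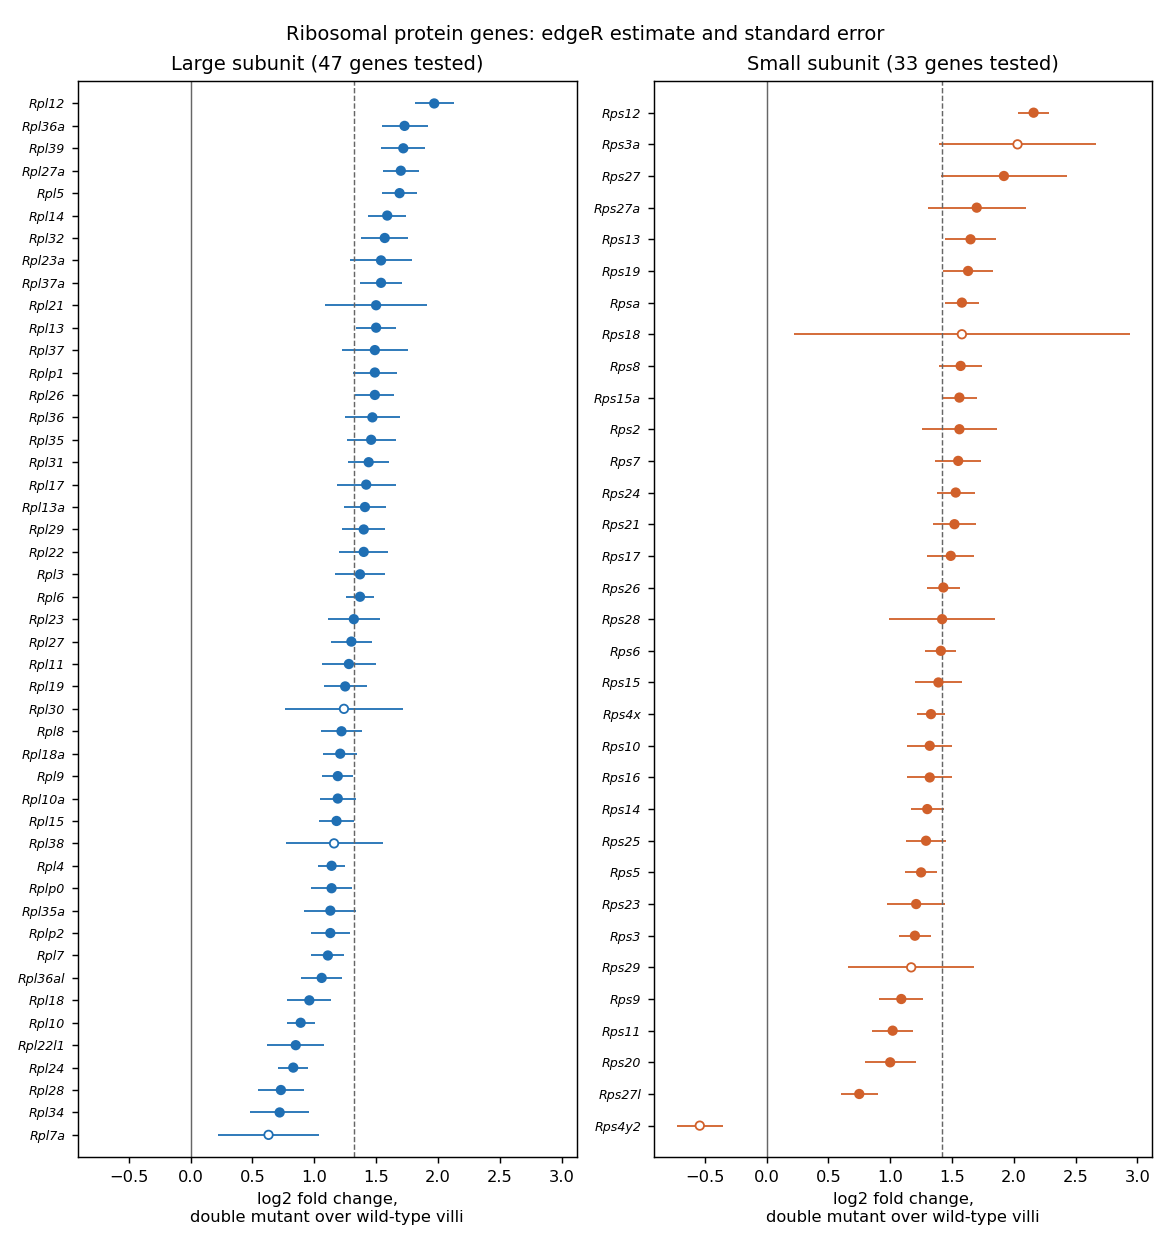
Log2 fold change (double mutant over wild-type villi) of each of the 80 ribosomal protein genes tested, by subunit, with edgeR's standard error as a horizontal bar. Filled points were called at an adjusted p under 0.05, open points were not, and the dashed line is the median of the subunit (1.32 large, 1.42 small). All but *Rps4y2* lie to the right of 0.

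The genes of the set also moved together within each group. Members took 0.596%, 0.517% and 0.667% of all counts in wild-type mice 1, 2 and 3, and 1.41%, 1.92% and 1.67% in double mutant mice 1, 2 and 3. The groups did not overlap, with means of 0.593% ± 0.0750 and 1.67% ± 0.258 (SD, n = 3 mice) and a log2 ratio of 1.49. The ordering of mice was shared by most genes. Wild-type mouse 2 was the lowest wild-type mouse for 67 of the 80 genes, double mutant mouse 1 the lowest mutant for 69 and double mutant mouse 2 the highest for 71. The same counts over all genes tested are not given here. Relative to each gene's wild-type mean, the median over members was 0.06, -0.19 and 0.16 on the log2 scale in wild-type mice 1 to 3 and 1.06, 1.62 and 1.36 in double mutant mice 1 to 3. The median over all genes tested lay between 0.00 and 0.04 in every mouse. For 75 members every double mutant mouse exceeded every wild-type mouse, where this held for 28.1% of all genes tested. The reverse held for *Rps4y2* alone, against 24.2% of all genes.

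**Figure D2:**
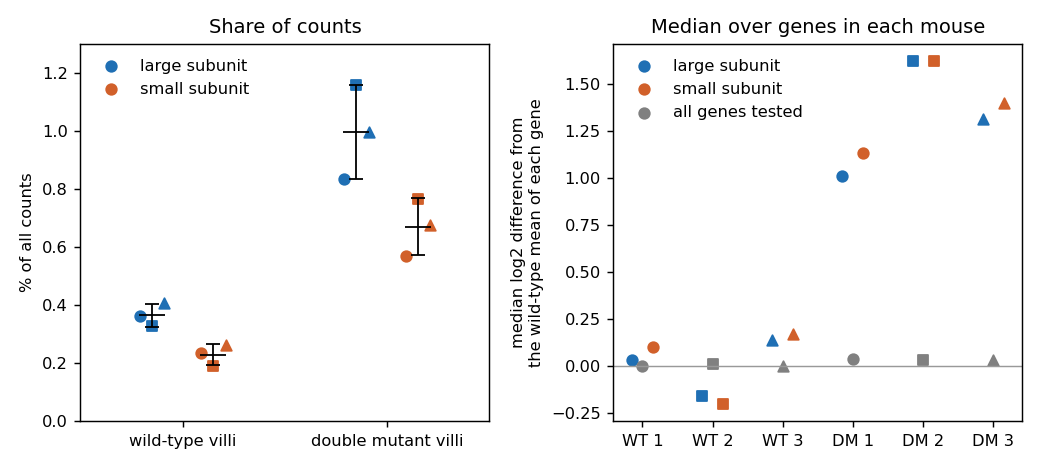
Left, share of all counts (%) on large and small subunit genes in each mouse (circle 1, square 2, triangle 3), with the mean ± SD of 3 mice in black. Right, the median log2 difference from each gene's wild-type mean in every mouse (WT wild-type, DM double mutant), for large subunit, small subunit and all genes tested. Both subunits are highest in double mutant mouse 2 and lowest in wild-type mouse 2, while the grey points stay near 0.

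Both subunits rose by a similar amount. Of 47 large subunit genes tested, 44 were higher, with a median log2 fold change of 1.32 (quartiles 1.14 and 1.49). Of 33 small subunit genes, 29 were higher, with a median of 1.42 (quartiles 1.25 and 1.57). The medians were -0.10 apart, large minus small, where the same difference varied by an SD of 0.06 between mice of a group. Without the paralogs it was -0.06, and with the counts of near-identical copies added to each gene it was -0.04. In counts, the ratio of large to small subunit reads was 1.54, 1.72 and 1.56 in wild-type mice and 1.47, 1.51 and 1.48 in double mutant mice. With copies added, these ratios became 1.54, 1.58 and 1.52 against 1.48, 1.50 and 1.51, so that the groups nearly met. The subunit difference was therefore small beside the rise itself, and it was not tested, since the members are not replicates.

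The 5 members with the highest wild-type CPM (*Rplp0*, *Rpl4*, *Rpl10*, *Rpl7* and *Rpl28*) all rose by less than the median of the set on their own rows. With near-identical copies added, *Rplp0* rose by 1.37 on the log2 scale, equal to the median of the set on those counts, and the other 4 stayed below it at 0.72 to 1.14. *Rplp0*, the base protein of the stalk on which translation factors act, had the highest wild-type level, at 215.9, 260.4 and 266 CPM, and 446.1, 668.7 and 523.4 CPM in the mutants (log2 fold change 1.14, standard error 0.166, adjusted p = 0.00131, edgeR). *Rpl4* lay at 241.1, 229.8 and 232 CPM in wild-type mice and 472.8, 544.9 and 526.5 CPM in double mutants, also with a log2 fold change of 1.14. *Rpl10*, whose protein is loaded late and allows the subunits to join, rose less, from 218.1, 212.4 and 228.5 to 363, 440.1 and 416.3 CPM. In *Rplp0*, *Rpl4* and *Rpl10* the lowest mutant lay far above the highest wild-type mouse. The log2 fold changes were 0.89 for *Rpl10* (adjusted p = 0.000738, edgeR) and 1.11 for *Rpl7* (adjusted p = 0.000611). Per kilobase of exon the order differed, with *Rplp1* highest in both groups at 299 and 836 CPM per kb, followed by *Rps26* at 233 and 626. The median level over members was 45.5 CPM per kb in the wild type and 121 in the mutants.

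The P stalk consists of Rplp0 with Rplp1 and Rplp2, and stands on Rpl12. All 4 genes rose, with estimates from 1.13 to 1.97 on the log2 scale, and differences between them were not tested. *Rpl12* had 36.41, 42.92 and 52.41 CPM in wild-type and 157.3, 192.9 and 166.2 CPM in the mutants, the largest change of the large subunit (log2 fold change 1.97, standard error 0.157, adjusted p = 0.000114, edgeR). *Rplp1* rose by 1.49 and *Rplp2* by 1.13 on the log2 scale, with adjusted p = 0.00061 and 0.00116 (edgeR). Rpl5 and Rpl11 carry 5S ribosomal RNA into the large subunit and, when free, bind Mdm2. *Rpl5* went from 80.85, 72.84 and 87.9 to 242.2, 304.2 and 230.6 CPM (1.69 on the log2 scale, adjusted p = 0.000136 by edgeR), and *Rpl11* from 87.06, 59.51 and 86.33 to 141.3, 236.1 and 188.6 CPM (1.28, adjusted p = 0.00296). Both sets of mice were apart for both genes.

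*Rps12*, a protein of the small subunit's beak, had the largest change of all members. Its levels were 32.91, 29.97 and 38.41 CPM in wild-type mice and 145.9, 161.2 and 144.7 CPM in double mutant mice. The lowest mutant stood far above the highest wild-type mouse (log2 fold change 2.16, standard error 0.128, adjusted p = 3.24e-05, edgeR), and the change ran from 2.08 to 2.25 with each mouse left out. *Rps6*, the classical substrate of the S6 kinases, lay close to the middle of the set. It had 85.02, 94.17 and 106.7 CPM in the wild type and 235.2, 279.2 and 246.4 CPM in the mutants (1.41, standard error 0.126, adjusted p = 0.000181). *Rps27a* encodes ubiquitin fused to a small subunit protein and rose by 1.70 on the log2 scale (adjusted p = 0.0178), with 17.41 to 33.16 CPM in wild-type mice and 48.63 to 120.6 CPM in double mutants.

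**Figure D3:**
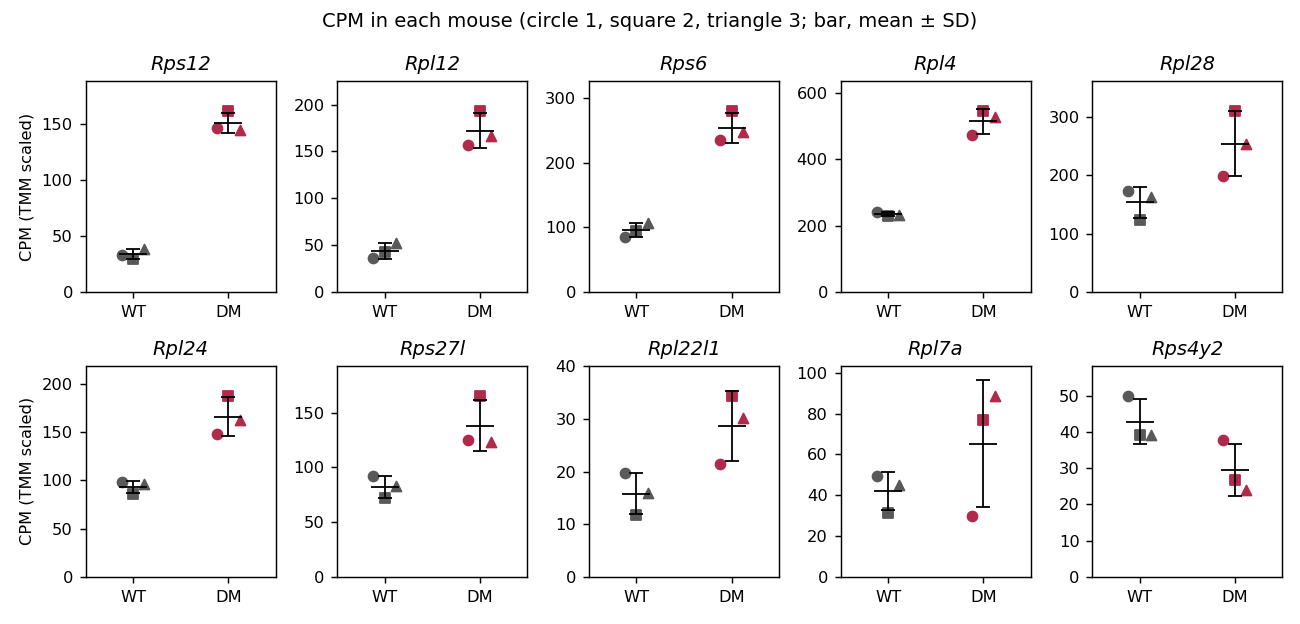
CPM of 10 ribosomal protein genes in each mouse of wild-type (WT) and double mutant (DM) villi, each panel on its own axis from 0; bars give the mean ± SD of 3 mice. *Rps12* and *Rpl12* show the widest gap, *Rps27l*, *Rpl28* and *Rpl24* a narrow one, the groups overlap in *Rpl7a*, and all double mutant mice lie below the wild-type mice in *Rps4y2*, which was not called.

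To find single genes that did not follow the set, all libraries were rescaled so that the summed counts of the 81 genes were equal. On this scale 1.84% of all genes tested were called higher and 73.7% lower, and a call on a member is read as a departure from the set. The adjustment ran over all genes tested, most of which were called, so it does little to limit false calls among the 80 members. For 72 of the 80 members no departure was called. Relative to the set, *Rps12* was higher by 0.88 (standard error 0.206, adjusted p = 0.00162, edgeR) and *Rpl12* by 0.68 (standard error 0.214, adjusted p = 0.0108). With each mouse left out in turn, *Rps12* was called in all 6 fits and *Rpl12* in 5. With the counts of near-identical copies added, both were still called, at 0.67 and 0.64, where 1.89% of all genes were higher.

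The 6 members called below the set were *Rps4y2*, *Rpl7a*, *Rpl34*, *Rpl28*, *Rps27l* and *Rpl24*. *Rpl28*, among the 5 highest members in wild-type villi, had 174.1, 123.8 and 163.2 CPM there and 199.3, 310 and 254.5 CPM in double mutant villi. Its groups did not overlap, but its change of 0.73 fell short of the set by 0.58 (adjusted p = 0.0176, edgeR, called in 4 of the 6 fits with a mouse left out). *Rpl24*, whose protein forms a bridge between the subunits, rose from 98.26, 86.33 and 95.98 to 148.3, 187.7 and 162.5 CPM, a log2 fold change of 0.83. Relative to the set it was at -0.47 (adjusted p = 0.0442), and that call was kept in 1 of those 6 fits. *Rpl7a* was the most uneven of the group, with 49.65, 31.44 and 45.24 CPM in the wild type and 29.9, 76.99 and 88.71 CPM in the mutants. The value of double mutant mouse 1 was under those of all 3 wild-type mice, the change of 0.63 was not called (adjusted p = 0.274), and the shortfall of -0.70 (adjusted p = 0.0419) was called in 2 of the 6 fits. The shortfall of *Rpl34* did not remain once its copies were counted with it, where it was 0.07 (adjusted p = 0.755).

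Paralogs, the second genes that encode a near copy of a ribosomal protein, had a lower median than the rest. The 4 tested had log2 fold changes of 1.06 (*Rpl36al*), 0.85 (*Rpl22l1*), 0.75 (*Rps27l*) and -0.54 (*Rps4y2*), with a median of 0.80, against 1.40 for the other 76 genes. Each lay below its counterpart, at 1.73 for *Rpl36a*, 1.40 for *Rpl22*, 1.92 for *Rps27* and 1.33 for *Rps4x*. *Rps27l*, a p53-inducible paralog, had 91.76, 71.7 and 82.84 CPM in wild-type mice and 125.4, 165.3 and 123.6 CPM in double mutants, and was below the set by -0.55 (adjusted p = 0.0251, edgeR, called in 3 of the 6 fits). *Rpl22l1* had 19.66, 11.75 and 16.02 CPM against 21.45, 34.37 and 30.09 CPM, so that the groups nearly met. *Rpl7l1*, which lies outside the rule, had a log2 change of 0.65 (adjusted p = 0.00579).

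*Rps4y2* was the 1 member with a negative estimate. It is a member by its name and its protein-coding type in the mm9 annotation, but RefSeq (GRCm38.p6) has *Rps4y2* as an older name of *Rps4l*, which it lists on the same chromosome as a transcribed pseudogene. The gene, which GENCODE M1 (mm9) places at chr6:148303178-148304120 on the plus strand, had 49.94, 39.22 and 39.27 CPM in the wild type and 37.7, 26.67 and 24.02 CPM in the mutants. All 3 mutants lay below all 3 wild-type mice, though mutant mouse 1 came close, and the log2 fold change was -0.54 (standard error 0.188, adjusted p = 0.0518, edgeR), just outside the threshold. It was called lower in 7 of the 16 alternative settings. Relative to the set it was at -1.79 (adjusted p = 8.41e-05) and was called in all 6 fits with a mouse left out. Its counterpart *Rps4x* had 103.1, 100.5 and 110.9 CPM in wild-type mice and 237.2, 282.7 and 268.5 CPM in double mutants.

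For several members the row of the gene held only part of the reads. A search of the coding sequences against the mm9 genome found at least 1 copy (at least 90% identity over at least 80% of the coding sequence) for 73 of the 81 genes and 1000 copies in all. Copies overlapped 632 separately annotated genes, of which 327 had counts in the table. For 15 tested members the copies held at least 20% of the combined counts. For the spread between mice of a group, each mouse's median log2 difference over members was first subtracted. The median SD that remained, on the log2 scale, was 0.43 for these 15 and 0.13 for the other 65. Once copies were added to the gene, it was 0.18 and 0.12. The split between gene and copies differed from mouse to mouse. *Rps3a* had 1788, 302 and 1517 counts of its own in wild-type mice and 3565, 4556 and 6423 in double mutant mice, while its copies had 961, 1683 and 916, then 2169, 2611 and 75. Its own row was not called (log2 fold change 2.03, adjusted p = 0.0581, edgeR), but the sum of gene and copies was (1.40, adjusted p = 0.00014). *Rpl30* likewise went from 1.24 (adjusted p = 0.0906) to 1.35 (adjusted p = 0.000867), and *Rps27* from 1.92 to 1.49 with a smaller error. For *Rps2*, 97.7% of the counts lay on copies.

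**Figure D4:**
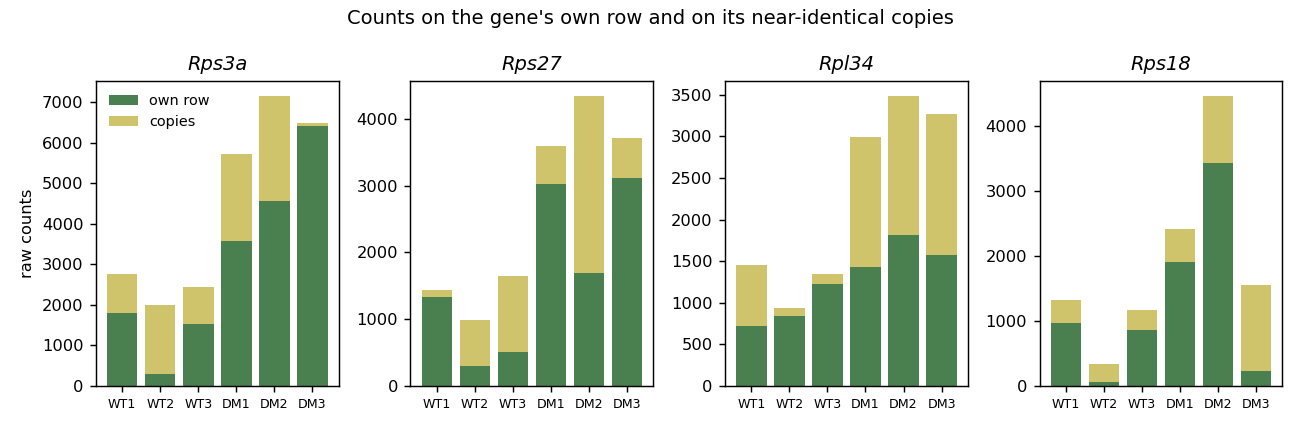
Raw counts in each mouse (WT wild-type, DM double mutant) for 4 genes, split into the gene's own row (green) and its near-identical copies (yellow). The division differs between mice of the same group, as in *Rps3a* of double mutant mouse 3 with 75 counts on copies, while the height of the bars varies less for *Rps3a*, *Rps27* and *Rpl34* than for *Rps18*.

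With copies added, 75 of the 80 members were higher, against 19.7% of all genes on the same counts, and the median was 1.37. The 5 not called were *Rps4y2*, *Rpl7a*, *Rpl38*, *Rps29* and *Rps18*. *Rps18* had 961, 51 and 856 counts in wild-type and 1904, 3420 and 228 counts in the mutants, so that wild-type mouse 2 and double mutant mouse 3 were both far below their groups. Its change was 1.58 with a standard error of 1.358 (adjusted p = 0.421, edgeR), and 1.58 with an adjusted p of 0.0895 with copies added. *Rps29* had 108.6, 39.44 and 100.7 CPM in the wild type and 98.21, 260.1 and 201.9 CPM in the mutants (1.17, adjusted p = 0.131). *Rpl38* had 77.31, 33.51 and 72.63 CPM against 88.11, 186 and 135.7 CPM (1.16, adjusted p = 0.0611). In both genes wild-type mouse 2 and double mutant mouse 1 were low, and the spread came on the gene's own row, since copies held 1.997% and 10.647% of the counts.

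Members are short transcripts, and other genes with short transcripts had slightly positive medians. Other tested genes had a median log2 fold change of 0.19 for transcripts under 1 kb, 0.11 from 1 to 2 kb, 0.02 from 2 to 4 kb and -0.09 above. Members of the same classes had medians of 1.40 (45 genes), 1.39 (24 genes), 1.20 (9 genes) and 1.20 (2 genes). The difference between members and other genes of their length was thus over 1 in each class.

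Promoter sequence (RefSeq, GRCm38.p6, 250 bases before to 50 after a transcript start) was matched for 60 members in 72 windows, out of 32851 windows of all genes. The letters CCGGAA, the core bound by ETS factors, stood on either strand in 45.8% of member windows and 14.9% of all windows. The GC box GGGCGG was in 59.7% against 35.7% and the YY1 core GATGGC in 23.6% against 14.1%. The E-box CACGTG, the letters bound by Myc with Max, was in 11.1% against 7.15%. CTTTGA, the core bound by TCF/LEF factors, was in 4.17% against 16.0%, and TATAAA in 9.72% against 13.6%. At least 5 pyrimidines in a row from one of the first 5 transcribed bases were found in 34.7% of member windows and 14.7% of all windows, and one within 20 bases in 77.8% and 57.5%. The median log2 fold changes of members with and without a motif were 1.41 and 1.38 for the pyrimidine run (25 and 34 genes), 1.42 and 1.33 for CCGGAA (32 and 27 genes) and 1.36 and 1.39 for the E-box (6 and 53 genes). They were 1.39 and 1.39 for the YY1 core (14 and 45 genes), 1.32 and 1.42 for the GC box (37 and 22 genes) and 1.42 and 1.35 for TATAAA (7 and 52 genes). The gaps were wider for CTTTGA, with 1.72 and 1.36 (3 and 56 genes), and for a pyrimidine run within 20 bases of the start, with 1.41 and 1.26 (51 and 8 genes). The 3 genes with CTTTGA include *Rps3a*, and with near-identical copies added their median was 1.42 against 1.36, while the gap of the pyrimidine run stayed at 1.40 and 1.27. None of these differences was tested. Of the starts printed above, *Rpl28* and *Rpl14* both hold a long run and changed by 0.73 and 1.59. *Rpl5*, *Rpl24* and *Rpl10*, with none in the printed bases, changed by 1.69, 0.83 and 0.89. Of these, *Rpl5* does have a run within 20 bases of the start, outside the printed bases.

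Other genes of the ribosome and of translation had lower medians, on lists written for this comparison. Of 29 factors that build or mature the 60S subunit, 21 were higher and 2 lower (median log2 fold change 1.04), with *Grwd1*, a chaperone of Rpl3, at 2.93 and *Sbds*, which frees the subunit of Eif6, at -0.74 (adjusted p = 0.000497 and 0.00102, edgeR). Of 19 factors of the 40S subunit, 15 were higher and none lower, also at an unadjusted p under 0.05 and by DESeq2 and limma-voom (median 1.04), from *Riok3* at -0.15 (adjusted p = 0.628) to *Dimt1*, a ribosomal RNA methyltransferase, at 3.05 (adjusted p = 0.00206). Of 14 genes of RNA polymerase I and its factors, 9 were higher (median 0.53), with *Polr1e* at 2.88 (adjusted p = 0.000663) and *Ttf1* at -0.33 (adjusted p = 0.0751). Other transcripts known for a TOP tract followed with 18 of 22 higher and a median of 0.77, from *Eif4b* at 0.06 (adjusted p = 0.686) to *Nap1l1* at 2.44 (adjusted p = 0.000114). Genes named Eif or Eef had 35 of 63 higher and 4 lower (median 0.51), and the mitochondrial ribosomal protein genes, Mrpl and Mrps, 32 of 76 higher (median 0.44) and none lower by the same tests.

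Not every gene tied to the ribosome was in this pattern, and the next 3 lists had shares of called genes not far from those of all genes tested (19.7% higher and 17.0% lower). Regulators of TOP translation and of the S6 kinases had 3 of 19 higher and 2 lower (median 0.09), with *Deptor* at 0.94 (adjusted p = 0.0717) and *Rps6kb2* at -0.44 (adjusted p = 0.0327, edgeR). Ribosome quality control genes had 3 of 12 higher and 1 lower (median 0.16), with *Abce1* at 1.36 and *Hbs1l* at -0.33 (adjusted p = 0.000928 and 0.0493). The calls of *Rps6kb2* and *Hbs1l* were weak, since that of *Hbs1l* was lost in all 6 fits with a mouse left out (adjusted p = 0.053 to 0.152) and that of *Rps6kb2* in all but the one without double mutant mouse 2. Transcription factors of ribosomal protein promoters had 3 of 11 higher and 2 lower (median -0.09). Among them *Myc* rose from 0.4165, 1.904 and 2.527 to 18.64, 15.54 and 20.98 CPM (3.53, adjusted p = 0.00234) and its partner *Max* fell by 1.15 on the log2 scale (adjusted p = 0.000421). Of 5 tested genes around Mdm2 and p53, 2 were higher and 2 lower, with *Trp53* at 0.89 and *Cdkn1a* at -1.92 (adjusted p = 0.00175 and 0.000114).

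Proteins of the ribosome whose genes lack the prefix did not all follow. *Gnb2l1*, the gene of Rack1 on the small subunit, rose from 131, 133.9 and 164.1 to 339.1, 422.5 and 362.9 CPM, or by 1.39 on the log2 scale (adjusted p = 0.000272, edgeR). *Fau*, which encodes a ubiquitin-like protein fused to a small subunit protein, had 462.1, 335.9 and 399 CPM in wild-type mice and 376.2, 525.8 and 478.4 CPM in double mutants (0.21, adjusted p = 0.356). For *Fau* the groups overlapped, whereas *Rps27a*, the fusion gene within the set, was called higher. Near-identical copies of *Gnb2l1* and *Fau* were not searched for, so only their own rows are given.

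**Figure D5:**
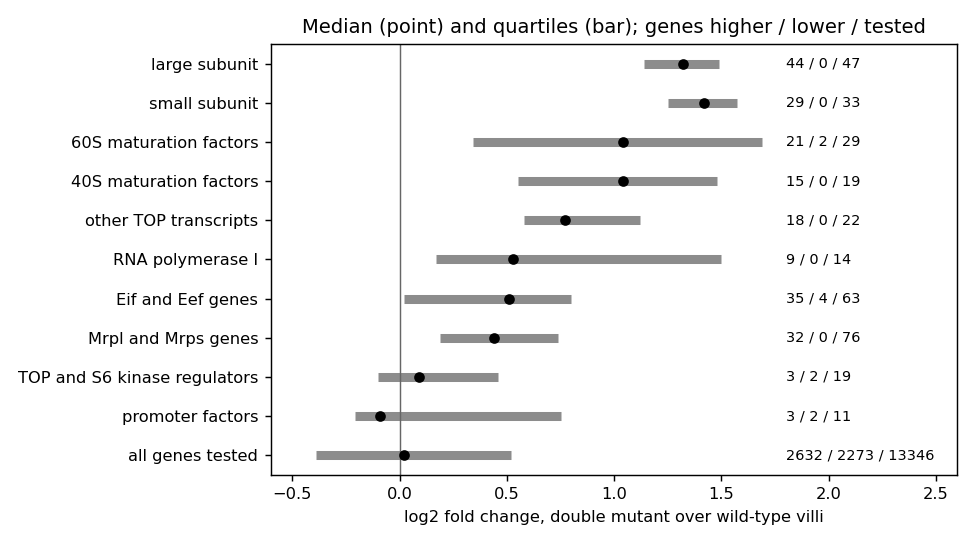
Median (point) and quartiles (bar) of the log2 fold change, double mutant over wild-type villi, for the ribosomal protein genes by subunit, for lists of other ribosome and translation genes and for all genes tested. The numbers at the right give genes higher, lower and tested. Both subunits have higher medians and narrower quartile ranges than the lists drawn below them, and their bars lie wholly above 1.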

How the data were processed

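Poly(A) RNA-seq was made from duodenal villus epithelium released with EDTA, 1 library per mouse (RNA integrity number above 4, 150 bp reads). The deposited values are raw counts per gene, made by the authors with HISAT2 and featureCounts on mm9 per the labels. Strand and the treatment of reads with several matches are not given in the sources used here. Ensembl identifiers were named with GENCODE M1 (mm9).

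Groups and mouse numbers came from the labels. The test was edgeR 4.0.16 (R 4.3.3): filterByExpr, TMM, robust quasi-likelihood fit of both groups without covariates, Benjamini-Hochberg over all 13346 genes tested. The study's methods used DESeq2, an alternative here (1.42.0), as was limma-voom (3.58.1). On simulated counts of this comparison (13358 genes, 200 drawn to change) edgeR recovered 48.3% of genes changed by 1 on the log2 scale, 79.7% by 2 and 97.5% by 3. Far fewer genes changed there than were called in the data, so recovery in the data may differ. Levels are TMM-scaled CPM, or CPM per kilobase. A floor of 3 counts is 0.114 to 0.152 CPM, covering counting error only.

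Named members were the 5 largest and 5 smallest changes, those not called or over 0.5 from the median, the 5 highest in wild type, paralogs and their counterparts, the stalk, the 5S particle, ubiquitin fusions, *Rps12* and *Rps6*. From each list the largest and smallest change were named. *Rpl14*, *Rpl27a*, *Rps2* and *Rps26* were named after their values were seen. Some genes that the rule names are not reported here. The members and lists were chosen with earlier results of these data known. Summing copies and scaling to the set were added after seeing the data. Mice of the same number did not deviate together, so no pairing was used. RefSeq promoters came from GRCm38.p6, not the files' build, and served for sequence only.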

Additional observations from a re-analysis of the deposited data

How the results depend on the processing

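The direction and the size of the rise held under the alternatives run. The number of members higher was 65 with a log2 fold change of at least 1, 68 without a low-count filter, 70 with a replicate block, 75 with DESeq2 and with library size alone, and 66 to 72 with each mouse left out (73 as reported). The median ran from 1.35 to 1.57 over the scalings, filters and tools, and from 1.23 to 1.50 with a mouse left out. Library size alone moved the median of all genes to 0.22 and gave 3732 genes higher and 1425 lower, and the upper quartile moved it to 0.11. Apart from the added threshold of 1, 66 members were called in all 16 other scalings, filters, tools, covariates and fits with a mouse left out. The 7 called members that lost the call in at least 1 of them were *Rpl21*, *Rpl22l1*, *Rpl28*, *Rpl34*, *Rps27*, *Rps27a* and *Rps28*. *Rps27* lost it without wild-type mouse 3 or any double mutant mouse, *Rpl28* without wild-type mouse 2 or double mutant mouse 2, and *Rpl21*, *Rpl22l1*, *Rpl28* and *Rps28* with the replicate block, under which *Rpl30* (adjusted p = 0.00415) was called in turn.

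The number of members lower, 0 as reported (edgeR), became 1, *Rps4y2*, under RLE size factors, without a low-count filter, with DESeq2, limma-voom, the replicate block or sex as a covariate, and was 0 to 1 with a mouse left out. The cause was not tested. Genes of the fixed lists called lower numbered 9 of 136, and 4 with library size alone or the upper quartile, 5 with the replicate block, and 4 to 7 with a mouse left out. Those called higher numbered 75, and 64 to 75 with a mouse left out. Members above the set numbered 2, and 2 to 4 with a mouse left out, 4 of them without double mutant mouse 1. Members below the set numbered 6, and 2 to 4, with 2 without wild-type mouse 1 or double mutant mouse 3, so the set of genes below it is uncertain except for *Rps4y2*.

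*Riok3*, at -0.15, turned to 0.05 with library size alone and 0.18 without wild-type mouse 1, within a range of -0.30 to 0.18 when each mouse was left out. It was not called. Mouse numbers were used as a block although same-numbered mice did not deviate together (correlations 0.022, -0.109 and 0.012 over 13346 genes). *Rpl3l*, with 0 to 2 counts in every mouse, was too low to test. Copies held a large part of the counts of *Rps18* and *Rpl7a*, but neither was called with copies added (adjusted p = 0.0895 and 0.156, edgeR). For *Rps29*, *Rpl38* and *Rps4y2* the spread between mice lay on the gene's own row.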
